A study of Homo sapiens with 9 samples.

Results

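Narrow peaks of H3K4me3 were examined in A549 cells, a human lung adenocarcinoma line. They were taken from the deposited H3K4me3 peak list as all peaks on chromosomes 1 to 22 and X that were under 500 bp wide (end minus start). There were 1365 such peaks among 16997, and the remaining 15632 are called wider peaks. The members were chosen by a measured value, their H3K4me3 width, so their width, fold enrichment and significance in that list are a description only. The width rule used no anti-HA value, but it was set with earlier results of these data known.

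The series has 9 CUT&Tag libraries in 3 groups of 3 replicates, and CUT&Tag directs a transposase to an antibody's targets so that sequenced fragments mark bound sites. Cells carrying an HA epitope inserted at the 5' end of their own BAZ2B gene were profiled with anti-HA, the same tagged cells with an antibody against H3K4me3, and wild-type (WT) A549 cells without the tag with anti-HA. The labels' protocols add 35 ng of Drosophila chromatin to the antibody step of all groups, and describe a transfection with 71 nM siRNA for 48 hours that no label ties to a library. The sources used here do not say whether the tagged line is 1 clone, and the lung epithelial identity on the label was not tested, because positions could not be tied to genes. The antibody field of H3K4me3 replicates 2 and 3 reads H3K4me4 and H3K4me5, and the sample titles, which say H3K4me3, were followed. H3K4me3 was profiled in the tagged cells alone, so overlaps with the WT list join peaks of different lines.

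H3K4me3 is written by the SET1 and MLL methyltransferase complexes around the start sites of active genes, where it usually spans the nucleosomes that flank a CpG-rich promoter. Short or weak stretches of the mark are known from low-activity promoters, small RNA genes transcribed by RNA polymerase III, enhancers and the margins of larger promoter domains. BAZ2B has a bromodomain, which binds acetylated lysine on histone tails, and partners ISWI ATPases that move nucleosomes. The title of the series links it to G-quadruplexes, the multi-stranded folds of guanine-rich DNA.

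Each group has 1 deposited list, whose rows come from 1 library and were kept when at least 2 replicates had the peak. No value per replicate was used here, so no number below has a replicate error and no test between groups was possible. Library depth is unknown. Percentages carry exact 95% binomial (Clopper-Pearson) intervals, which cover counting error over peaks only, and peaks of 1 library are not independent replicates of a condition. The HA-BAZ2B list (anti-HA in tagged cells) held 6788 peaks on these chromosomes and the WT list 2381, and neither the unequal length nor depth was adjusted for unless stated. Fold enrichment and −log10 q are the values of the authors' peak caller for each peak, and they are compared within a list only.

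The narrow peaks formed the lower tail of a single broad distribution of widths, as the histogram of peak widths shows. Their median width was 400 bp (quartiles 340 and 454 bp) against 1178 bp for wider peaks, and together they covered 541362 bp. The smallest width in the list, 299 bp, was shared by 147 narrow peaks (10.8%), so many of them sat at the shortest length the list holds. Their median fold enrichment was 6.18 (quartiles 4.82 and 8.73) against 9.24 in wider peaks, and their median −log10 q was 8.34 against 44.6. Only 35 narrow peaks (2.56%) reached a −log10 q of 30, compared with 11222 wider peaks (71.8%).

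**Figure D1:**
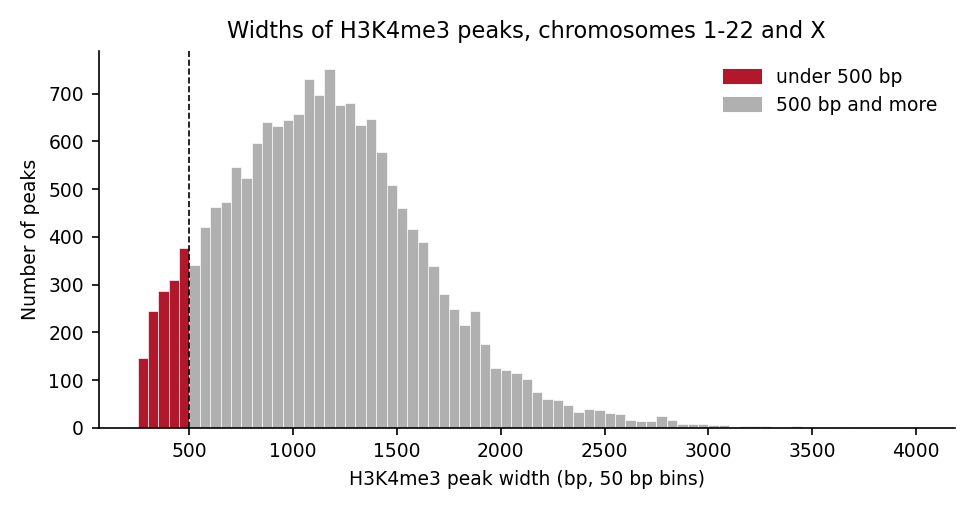
Number of H3K4me3 peaks (y axis) in 50 bp bins of width (x axis, bp) on chromosomes 1 to 22 and X, with the 1365 peaks under 500 bp in red and the 15632 wider ones in grey. The red bars are the left flank of one hump, and the dashed line at 500 bp lies on the rising side, though the bin to its right (340 peaks) is lower than that to its left (377).

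Within the narrow peaks, height grew with width. Median fold enrichment was 5.03 under 350 bp, 6.26 from 350 to under 400 bp, 7.41 from there to under 450 bp and 8.56 from 450 bp upward. Across the 1365 narrow peaks the Spearman rho of width and fold enrichment was 0.48, whereas across the wider peaks it was -0.39, given as descriptions of peaks from the same library. Fold enrichments often repeated to the last deposited digit: 840 narrow peaks (61.5%) shared their value with another narrow peak, as did 43.6% of wider peaks among themselves. The commonest value in narrow peaks, 5.39, occurred 84 times.

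The 500 bp limit did not fall at a break in the H3K4me3 values. The 77 peaks at most 10 bp short of the limit had medians of 8.73 in fold enrichment and 14.5 in −log10 q. The 71 peaks from the limit to less than 10 bp beyond it had 8.15 and 13.2.

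Most narrow peaks carried no anti-HA peak from either line. An HA-BAZ2B peak overlapped 113 of 1365 by at least 1 bp (8.28%, 6.87 to 9.87%), where 39.6% of all 16997 H3K4me3 peaks and 42.3% of wider peaks (41.5 to 43.1%) had one. A WT peak overlapped 85 (6.23%, 5.00 to 7.64%), against 13.1% of all and 13.7% of wider peaks (13.1 to 14.2%). The gap between narrow and wider peaks was thus much larger for the tagged than for the untagged list, although this contrast was not tested. Since a wider peak has more bases to be touched, the overlap was also required to cover the H3K4me3 summit. By that rule HA-BAZ2B marked 7.69% of narrow and 41.5% of wider peaks, and WT 6.08% and 12.1%. When an overlap of 50% of the H3K4me3 width was required, WT marked 6.15% of narrow and 6.40% of wider peaks, but WT peaks on wider H3K4me3 peaks had a median of 0.49 of their width, so the rule itself removes many of them.

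Sorted by both lists, 87 narrow peaks (6.37%) had HA-BAZ2B only, 59 (4.32%) had WT only, 26 (1.90%) had both and 1193 (87.4%, 85.5 to 89.1%) had neither. Over all H3K4me3 peaks these shares were 28.3%, 1.78%, 11.3% and 58.7%. A narrow peak with a WT peak and no HA-BAZ2B peak was therefore more frequent among narrow peaks (3.31 to 5.54%) than among wider ones (1.56%, 1.37 to 1.77%), while every class with HA-BAZ2B was less frequent.

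The order of the lists on narrow peaks changed when the longer list was cut to its strongest peaks and the WT list was left whole. HA-BAZ2B peaks on narrow H3K4me3 peaks had a median −log10 q of 5.92, against 28.5 over their whole list. A cut by −log10 q therefore removes most of them by construction, and the effect of length alone was not tested. With the HA-BAZ2B list limited to as many peaks as the WT list holds, by highest −log10 q, 5 narrow peaks (0.366%) kept an HA-BAZ2B peak, below the 6.23% with a WT peak. In that setting 15.3% of wider peaks had HA-BAZ2B and 13.7% had WT.

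The share with HA-BAZ2B was low throughout the narrow range and climbed beyond it. It was 6.14% (3.97 to 9.0%) under 350 bp, 6.97% from 350 to under 400 bp, 10% from 400 to under 450 bp and 10.1% (7.23 to 13.6%) from 450 to under 500 bp. The 4 intervals overlap, which does not exclude a trend within the narrow peaks, and none was tested. Beyond the limit the HA-BAZ2B share was 15.7% (13.1 to 18.4%) from 500 to under 600 bp, 27.9% from 750 to under 1000 bp and 65.3% at 2000 bp and more. The WT share stayed between 4.84% and 8.82% in all classes under 1000 bp and reached 26.9% at 2000 bp and more. Directly at the limit, 4 of the 77 peaks just inside and 10 of the 71 just outside had an HA-BAZ2B peak.

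**Figure D2:**
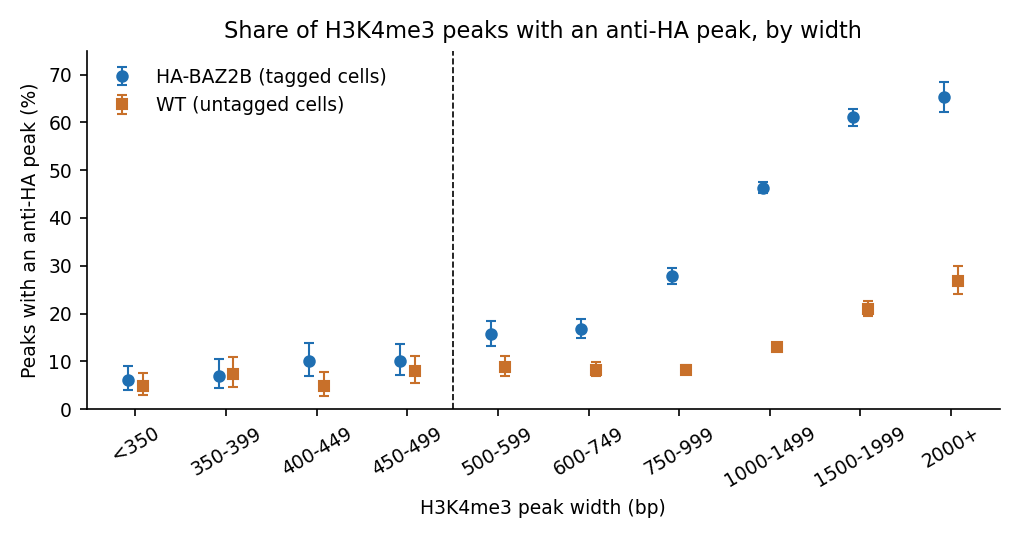
Share of H3K4me3 peaks (%, y axis) that overlap an HA-BAZ2B peak (blue circles) or a WT peak (orange squares) in 10 classes of H3K4me3 width (x axis, bp), with exact 95% binomial intervals as bars. Left of the dashed line at 500 bp both lists lie at 4.84 to 10.1%, and to its right the blue points climb to 65.3%.

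Narrow peaks are also weak in H3K4me3, so the shares were set beside those of wider peaks of like −log10 q. At a −log10 q of 5 to 10, 27 of 556 narrow peaks (4.86%, 3.22 to 6.99%) and 80 of 725 wider peaks (11.0%, 8.85 to 13.5%) had HA-BAZ2B. At 15 to 20, 9 of 134 narrow peaks (6.72%, 3.12 to 12.4%) and 155 of 893 wider peaks (17.4%, 14.9 to 20.0%) did. In these 2 classes the intervals do not overlap. They do overlap in the other 4 classes, among them the highest, where 13 of 35 narrow peaks at a −log10 q of 30 or more (37.1%, 21.5 to 55.1%) and 52.5% of wider ones had HA-BAZ2B. Below 5 the order was the other way, with 7.84% of narrow and 5.26% of wider peaks.

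Weighted to the narrow peaks' mix of the 6 classes, the wider peaks would have had HA-BAZ2B in 13.0% and WT in 8.39%. The narrow peaks' own shares were 8.28% and 6.23%. The distance to the 42.3% of wider peaks was thus much smaller at like −log10 q. The −log10 q classes are broad, and in the open class from 30 upward wider peaks reach much higher values than narrow ones. At like fold enrichment the distance stayed wide. Under 5, 8.92% of narrow and 31.8% of wider peaks had HA-BAZ2B, and from 5 to under 7.5, 5.37% and 43.3%. From 7.5 to under 10 the shares were 9.02% and 44.4%, and at 10 or more 13.2% and 41.6%. The cause was not tested.

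**Figure D3:**
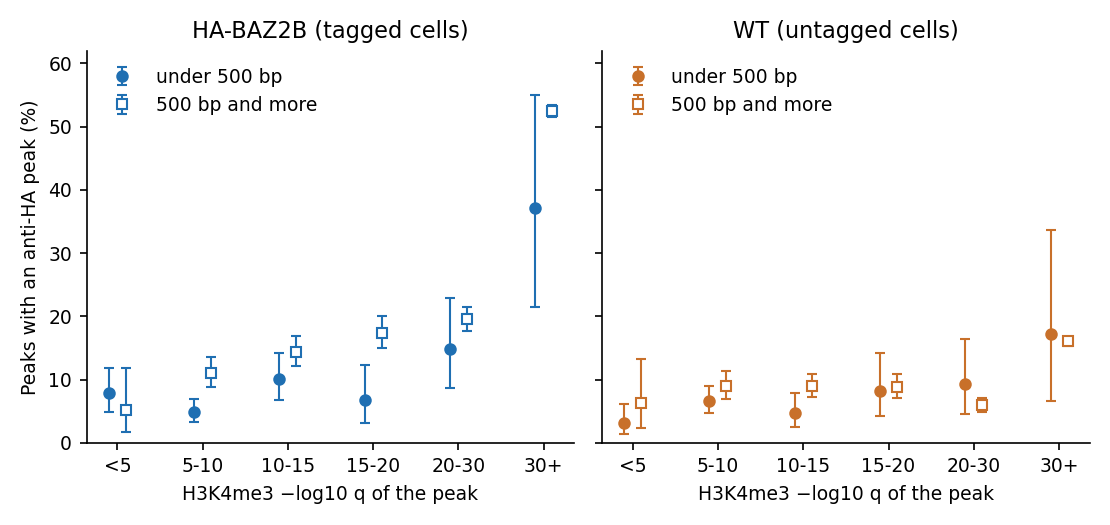
Share of H3K4me3 peaks (%, y axis) with an HA-BAZ2B peak (left) or a WT peak (right) by class of the H3K4me3 −log10 q (x axis), for peaks under 500 bp (filled circles) and wider ones (open squares), with exact 95% binomial intervals. On the left the filled circle lies below the open square in all classes except that under 5, and in the highest class it reaches 37.1% beside 52.5%.

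The 5 narrow peaks with the highest HA-BAZ2B fold enrichment among those without a WT peak were 4 with a short HA-BAZ2B peak and 1 with a long one. Leading was a peak of 423 bp at 20p13 (chromosome 20, 4004410 to 4004832, hg19), with an H3K4me3 fold enrichment of 17.3 and an HA-BAZ2B peak of 437 bp and fold enrichment 15.7. At 9q31.1 (chromosome 9, 104211444 to 104211932) the H3K4me3 fold enrichment was 16.2 and that of HA-BAZ2B 11.6. At 3q28 (chromosome 3, 191872591 to 191873081) they were 18.1 and 10.7, and the nearest other H3K4me3 peak was 253 kb away. At 13q34 (chromosome 13, 114427939 to 114428359) they were 11.4 and 10.5. In these 4 the HA-BAZ2B peak was 409 to 442 bp wide, about as narrow as the H3K4me3 peak. The distance to the next H3K4me3 peak was 7.91 kb at 20p13, where that neighbour also had HA-BAZ2B, 36.4 kb at 9q31.1 and 33.4 kb at 13q34. The remaining peak, at 17q12 (chromosome 17, 33915372 to 33915688), differed. It was low in H3K4me3 (3.69) and lay 249 bp from an H3K4me3 peak of 1195 bp, and its HA-BAZ2B peak was 1527 bp wide.

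As a whole, the HA-BAZ2B peaks on narrow H3K4me3 peaks were weak. Their median fold enrichment was 5.59 (5.07 to 5.61, 95% interval of the median), against 8.25 (8.17 to 8.34) for HA-BAZ2B peaks on wider peaks. Their median −log10 q was 5.92 against 29.0. The smallest width in the HA-BAZ2B list, 292 bp, was that of 31 of the 113 (27.4%), compared with 2.37% of all 6788 HA-BAZ2B peaks. Narrow H3K4me3 peaks took up 113 HA-BAZ2B peaks, 1.66% of that list, and 84 WT peaks, 3.53% of that list. Of the 708 HA-BAZ2B peaks that were themselves under 500 bp, 645 lay on an H3K4me3 peak and 80 (11.3%) on a narrow one. That share was above the 1.66% for all 6788 HA-BAZ2B peaks.

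WT peaks on narrow H3K4me3 peaks were not weaker than elsewhere in their list. Their median fold enrichment was 6.65 (6.19 to 7.01), close to the 6.47 (6.39 to 6.56) on wider peaks, and their median −log10 q was 10.3 against 10.6. In the WT list, narrow H3K4me3 sites thus had ordinary peaks, and in the HA-BAZ2B list weak ones. Because each comparison stays within its own list, these values do not set the lines against each other.

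Where a WT peak was present, an HA-BAZ2B peak was much less often present on narrow than on wider H3K4me3 peaks. Of the 85 narrow peaks with WT, 26 also had HA-BAZ2B (30.6%, 21.0 to 41.5%), compared with 1895 of 2139 wider ones (88.6%, 87.2 to 89.9%) and 86.4% of all. In peaks from 500 to under 750 bp it was 103 of 189 (54.5%, 47.1 to 61.7%), between both. The order was the same within each class of WT −log10 q. At a WT −log10 q of 10 or more, 15 of 45 narrow peaks (33.3%, 20.0 to 49.0%) and 94.7% of 1151 wider peaks had HA-BAZ2B.

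The narrow peaks with the highest WT fold enrichment and no HA-BAZ2B peak lay largely at chromosome ends. The highest was at 17p11.2 (chromosome 17, 22020603 to 22020982), with 17.9 in WT and 6.73 in H3K4me3, in a band beside the centromere. Next was 7p22.3 (chromosome 7, 9923 to 10321), with 17.8 in WT, 9.92 kb into the chromosome. At 15q26.3 (chromosome 15, 102521072 to 102521529) the WT value was 13.4 at 9.86 kb from the end, and at 4p16.3 (chromosome 4, 9852 to 10336) it was 13.2 at 9.85 kb. The last of the 5, at 11p13 (chromosome 11, 35325918 to 35326216), was inside its arm, with 11.1 in WT and 4.71 in H3K4me3.

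Telomere repeats adjoin these terminal positions, which border the unsequenced stretch that hg19 places at chromosome ends. All 5 narrow peaks within 10 kb of an end had a WT peak, with WT fold enrichments of 10.9 to 17.8, and 1 of them, at 18p11.32 (chromosome 18, 9910 to 10377), also had a weak HA-BAZ2B peak (4.81). The 2 wider peaks within 10 kb of an end had both. Within 100 kb there were 11 narrow peaks, 7 with WT and 2 with HA-BAZ2B. Without these 11, the WT share of narrow peaks was 5.76% and the HA-BAZ2B share 8.20%.

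Narrow peaks with both anti-HA peaks were the highest class in H3K4me3, with a median fold enrichment of 8.82 (6.75 to 11.3) against 6.06 for those with neither. The highest was at 1q42.3 (chromosome 1, 236260305 to 236260797), with 16.9 in H3K4me3, 7.13 in HA-BAZ2B and 19.6 in WT. The next were at 9p13.2 (chromosome 9, 38171060 to 38171481; H3K4me3 16.1), 15q26.1 (chromosome 15, 90701257 to 90701722; 14.7), 17q25.3 (chromosome 17, 76858199 to 76858655; 14.2) and 14q22.1 (chromosome 14, 51422194 to 51422659; 13.6). At these 4 the HA-BAZ2B fold enrichment ran from 5.61 to 6.55 over widths of 292 to 338 bp. The medians of all HA-BAZ2B peaks on narrow H3K4me3 peaks were 5.59 and 367 bp.

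High H3K4me3 at a narrow site also occurred with no anti-HA peak at all. The highest such site, and the highest of all narrow peaks, was at 7p15.2 (chromosome 7, 25642726 to 25643171), where H3K4me3 was enriched 18.4-fold over 446 bp and no other H3K4me3 peak within 253 kb. Second was 9p11.2 (chromosome 9, 44245139 to 44245603), with 17.1, in a band near the centromere. Next came 1q31.1 (chromosome 1, 186606538 to 186607022), with 16.8, and 16q21 (chromosome 16, 60010563 to 60011031), with 16.6 at 403 kb from the next peak. The last of these 5 was at 1q21.1 (chromosome 1, 143673113 to 143673590), with 16.5. Of the 219 narrow peaks with a fold enrichment of 10 or more, 29 (13.2%, 9.05 to 18.5%) had HA-BAZ2B, against 41.6% of the 6228 wider peaks of that height.

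By distances between nearest edges, narrow peaks were more often than wider ones both very near to and far from other H3K4me3 peaks. The median distance to the nearest other H3K4me3 peak was 28.5 kb (25.5 to 32.5 kb) for narrow and 30.9 kb (30.1 to 31.6 kb) for wider peaks. Under 1 kb from another peak lay 167 narrow peaks (12.2%, 10.5 to 14.1%), against 4.47% of all H3K4me3 peaks and 3.79% of wider ones (3.49 to 4.10%). Between summits, a distance that includes part of both widths, the shares under 1 kb were 5.79% (4.61 to 7.16%) for narrow and 0.838% (0.701 to 0.994%) for wider peaks. At 100 kb or more lay 316 narrow peaks (23.2%, 20.9 to 25.5%) and 17.6% of wider ones (17.0 to 18.2%). The distances depend on the listed peaks. The numbering of peaks in the source library shows that 861 narrow peaks (63.1%) had no unlisted peak on either side, as had 66.1% of wider peaks. For those narrow peaks the median was 21.5 kb and the share under 1 kb 15.1%, and 4.46% of such wider peaks lay under 1 kb.

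Close narrow peaks were low in H3K4me3, as close wider peaks were. Their median fold enrichment was 3.98 (3.67 to 4.30), compared with 6.73 for narrow peaks at 1 kb or more, and in wider peaks it was 4.90 under 1 kb and 9.37 at 1 kb or more. The neighbour had the higher fold enrichment in 135 of 167 cases (80.8%), though the narrow peaks were chosen by a width that goes with low height. At any distance, nearest neighbours of narrow peaks had a median of 8.51, against 6.18 for the narrow peaks. The neighbour of a close narrow peak was itself under 500 bp in 41 cases (24.6%). The nearest neighbour of all 1365 narrow peaks was 500 bp or wider in 89.0%, where 15632 of all 16997 H3K4me3 peaks were that wide. The smallest distance was 134 bp, at 15q21.3 (chromosome 15, 56207683 to 56208108; 3.66), beside a peak of 1034 bp. Next was a pair at 1p36.23 (chromosome 1, 8121561 to 8121859 and 8121997 to 8122295), 137 bp apart, each 299 bp wide with a fold enrichment of 3.98. This pair was also among the narrowest peaks of the list.

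HA-BAZ2B on close narrow peaks followed the neighbour. An HA-BAZ2B peak overlapped 28 of the 167 (16.8%, 11.4 to 23.3%), and in 24 of these 28 the same HA-BAZ2B peak also covered the neighbour. Where the neighbour had HA-BAZ2B, 25 of 44 close narrow peaks had it too (56.8%, 41.0 to 71.7%). Where the neighbour lacked it, 3 of 123 did (2.44%, 0.506 to 6.96%). The HA-BAZ2B peaks on close narrow peaks were a median of 1864.5 bp wide and 5.23 times as wide as the narrow peak beneath. For WT, 9 of 167 close narrow peaks (5.39%) had a peak, 4 of them under the same WT peak as the neighbour.

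Away from neighbours, most HA-BAZ2B peaks were narrower than the H3K4me3 peak beneath, on narrow and on wider H3K4me3 peaks. Of the 1198 narrow peaks at 1 kb or more, 85 had HA-BAZ2B (7.10%, 5.71 to 8.70%) and 76 had WT (6.34%, 5.03 to 7.88%), intervals that overlap widely. The HA-BAZ2B peak was narrower than the H3K4me3 peak in 69 of these 85 cases, with a median ratio of 0.83 (0.77 to 0.87). The WT peak was narrower in 27 of 76, with a median ratio of 1.15 (1.01 to 1.28). On wider peaks at 1 kb or more the median ratios were 0.92 for HA-BAZ2B and 0.48 for WT. All these ratios hold the width by which the narrow peaks were chosen and are a description only. In base pairs, WT peaks at narrow sites at any distance had a median width of 480 bp, against 661 bp at wider ones.

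**Figure D4:**
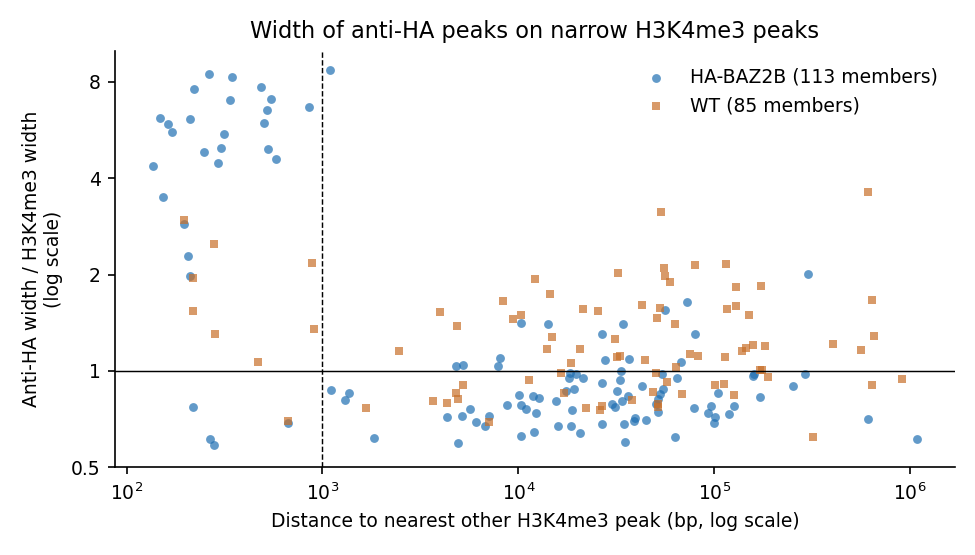
Width of the anti-HA peak divided by the width of the narrow H3K4me3 peak (y axis, log scale) against the distance to the nearest other H3K4me3 peak (x axis, bp, log scale), for 113 members with HA-BAZ2B (blue circles) and 85 with WT (orange squares). Ratios above 2 for HA-BAZ2B lie left of the dashed line at 1 kb in 23 of 25 cases.

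Among isolated narrow peaks WT was the commoner of the anti-HA peaks. Of the 316 at 100 kb or more, 12 had HA-BAZ2B (3.80%, 1.98 to 6.54%) and 25 had WT (7.91%, 5.19 to 11.5%), with 4 in common. The intervals overlap, and the difference was not tested. Among wider peaks at the same distances the HA-BAZ2B share was 36.3% and the WT share 11.2%. The distance classes between, from 1 to 10 kb and from 10 to 100 kb, had HA-BAZ2B on 7.05% and 8.74% of narrow peaks and WT on 4.98% and 6.08%.

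**Figure D5:**
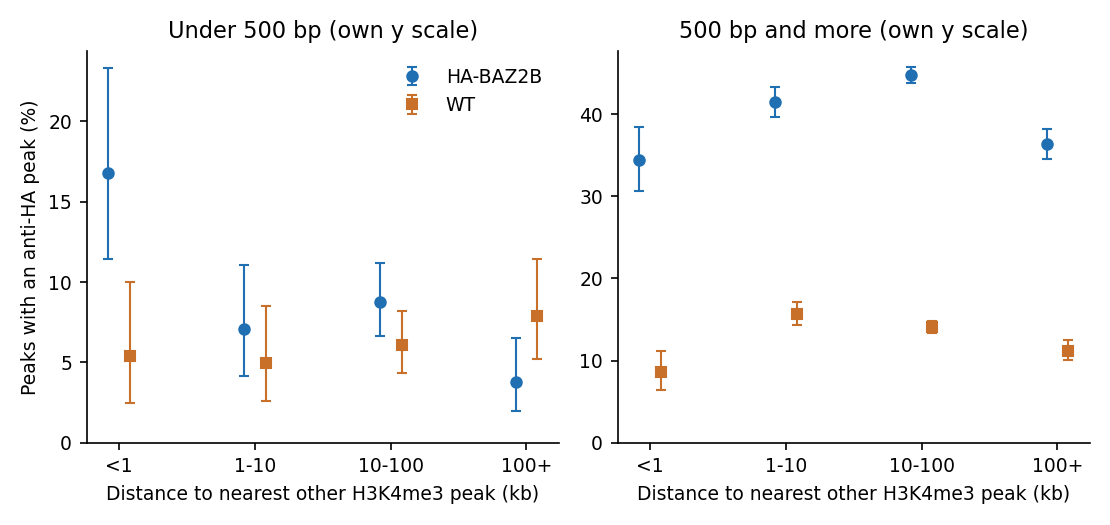
Share of H3K4me3 peaks (%, y axis, a scale of its own in each panel, both from 0) with an HA-BAZ2B (blue circles) or WT (orange squares) peak by distance to the nearest other H3K4me3 peak (x axis, kb), for narrow peaks (left) and wider ones (right), with exact 95% binomial intervals. On the left HA-BAZ2B goes from 16.8% in the closest class to 3.80% in the farthest, where WT lies above it at 7.91%.

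The 5 most isolated narrow peaks had no anti-HA peak, as had 283 of the 316 at 100 kb or more (89.6%). They lay at 11p12 (chromosome 11, 40315370 to 40315728), 3018 kb from the next H3K4me3 peak, at 13q21.1 (chromosome 13, 58926485 to 58926783), 1811 kb, at 14q31.2 (chromosome 14, 84105701 to 84106170), 1594 kb, at 14q31.1 (chromosome 14, 79780436 to 79780882), 1513 kb, and at 7q35 (chromosome 7, 146894322 to 146894640), 1501 kb. Their H3K4me3 fold enrichment ran from 4.71 to 13.3. Isolation thus went with both weak and strong narrow peaks.

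Anti-HA summits lay near the H3K4me3 summit. The HA-BAZ2B summit was a median of 62 bp (51 to 96 bp) from the H3K4me3 summit and the WT summit 63 bp (40 to 80 bp), over 113 and 85 peaks, against 87 and 80 bp on wider peaks. An anti-HA peak that overlaps a narrow peak can have its summit outside it, but the widths of both peaks together limit the distance. HA-BAZ2B peaks had a median width of 367 bp on narrow and 1243 bp on wider peaks. The distances on narrow and wider peaks are therefore not a like comparison. The largest distances on narrow peaks were 1889 bp for HA-BAZ2B and 741 bp for WT. Heights were loosely related. The Spearman rho of the H3K4me3 and HA-BAZ2B fold enrichments was 0.28 over the 113 narrow peaks with HA-BAZ2B, and 0.45 over the 85 of them at 1 kb or more. For WT it was 0.50 over 85 narrow peaks. On wider peaks it was 0.75 for HA-BAZ2B and 0.22 for WT. These are descriptions over peaks that share libraries.

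Of all 16997 H3K4me3 peaks, 1365 were narrow, the base for the shares that follow. By chromosome, narrow peaks made up 5.99% (4.37 to 7.98%) of H3K4me3 peaks on chromosome 16 and 6.05% (4.68 to 7.67%) on chromosome 17, the lowest shares, and 10.9% (7.71 to 14.8%) on chromosome 13, the highest. Between arms, leaving out any with few H3K4me3 peaks, the share ran from 4.60% on 16p and 4.71% on 3p to 11.7% on 3q and 13.5% on 10p. On chromosome 3 this was 19 of 403 peaks on the short arm and 60 of 514 on the long arm. These chromosomes and arms were picked for their values. By Giemsa stain, narrow peaks were 11.1% of the H3K4me3 peaks in the darkest bands (9.18 to 13.2%), which are gene-poor, and 7.53% in light bands (7.03 to 8.06%). In centromeric and variable bands and within 1 Mb of them lay 47 narrow peaks (3.44%, 2.54 to 4.55%), compared with 1.94% of wider ones (1.73 to 2.17%).

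Narrow peaks were scattered: 666 of the 1 Mb windows that held any held 1. The window with most, picked for its count, held 9 among 45 H3K4me3 peaks, where 1365 of all 16997 were narrow. It lay at 6p22.1 (chromosome 6, 28000001 to 29000000), a region known for its large cluster of tRNA genes, which RNA polymerase III transcribes. The H3K4me3 list also held 75 narrow peaks on alternative haplotypes of chromosome 6. Whether those copies affect the peaks listed in this window was not tested. None of the 9 had an anti-HA peak, a count close to the 87.4% of all narrow peaks without one. Of the 36 wider peaks of the window, 16 had HA-BAZ2B and 4 had WT. The highest of the 9 (28323637 to 28324116) had 14.3 in fold enrichment, and the others ran down to 4.30 over widths of 307 to 495 bp. The next 3 windows held 7 each. At 19q13.33 (chromosome 19, 48000001 to 49000000) none of the 7 had HA-BAZ2B and 1 had WT. At 6p22.2 (chromosome 6, 26000001 to 27000000), which also holds histone genes, 1 had each, and in the 6p22.1 window that follows (27000001 to 28000000) 1 had HA-BAZ2B.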

How the data were processed

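CUT&Tag was made on 9 A549 libraries, grouped by sample title. The submitters' processing notes name Bowtie2 (2.4.5) for alignment, SAMtools (1.15.1), Picard, bedtools and the peak caller MACS2 (2.1.4), with the builds hg19 and dm6. The sources used here give neither MACS2 settings nor its controls. Per the labels, peaks found in at least 2 replicates were kept with the rows of the largest file, which the peak names show to be replicate 1 (H3K4me3), 3 (HA-BAZ2B) and 2 (WT). The authors deposited, per peak, a fold enrichment (a ratio over the caller's own background) and a −log10 q value. Positions and summit offsets in bp, and peak names, were also deposited by the authors.

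Overlap needed 1 bp, and a member's strongest overlapping peak gave its anti-HA values. Shares have exact binomial intervals and medians order-statistic intervals (95%). Cytogenetic bands came from circlize 0.4.16 and chromosome lengths from GenomeInfoDb 1.38.1 (R 4.3.3). Python 3.11.15 ran the remaining steps with numpy 2.4.6, pandas 2.3.3, scipy 1.17.1 and matplotlib 3.10.9. The overlap, distance and interval functions were tested on simulated lists. The main alternatives changed the width limit, the overlap, the −log10 q minimum, the length of the HA-BAZ2B list and the distance measure. Named peaks were the 5 highest of each overlap class (by HA-BAZ2B, WT or H3K4me3 fold enrichment), the 5 farthest from and 3 closest to another H3K4me3 peak, and the narrowest 3; the densest windows and extreme arms were also named. Members, lists and classes were chosen with earlier results of these data known. Sequences and gene names at the peaks were not used here, since the reference tables are of another build than hg19.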

Additional observations from a re-analysis of the deposited data

Results flagged for a closer look

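Outside chromosomes 1 to 22 and X, the H3K4me3 list held 91 further peaks under 500 bp, 75 of them on alternative haplotypes of chromosome 6. An HA-BAZ2B peak overlapped 11 of these 91 and a WT peak 3. The HA-BAZ2B list is the longer one on chromosomes 1 to 22 and X, 6788 against 2381 peaks, and the counts were not adjusted for length. Peaks on haplotypes of the same region are not separate sites.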

How the results depend on the processing

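Over 54 alternative values of the 6 main results, 41 stayed inside the interval of the reported value and 13 did not. The HA-BAZ2B share of narrow peaks lay below that of wider peaks in 11 of 11 alternatives. With a width limit of 400 bp, the HA-BAZ2B share was 6.49%, that among peaks with WT 17.5%, and the median distance 33.0 kb. With 600 bp, the HA-BAZ2B share was 10.9% and the share with neither 84.7%. With anti-HA peaks of a −log10 q of at least 5, HA-BAZ2B marked 5.57% and neither list 90.5%. With the HA-BAZ2B list limited to the length of the WT list, these shares were 0.366% and 93.4%. In that setting 0 of 85 narrow peaks with WT had HA-BAZ2B (0%, with an exact 95% interval up to 4.25%), and fewer peaks enter by construction. Between summits, 5.79% of narrow peaks lay under 1 kb from another. For narrow peaks with no unlisted peak on either side, chosen after seeing the data, 15.1% lay under 1 kb and the median distance was 21.5 kb. For the other changes the cause was not tested. No replicate could be left out, because each list holds 1 library's values. No paired analysis was possible because the lists carry no value per replicate. Unknown depth limits every share: a missing peak may be an undetected one.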
